A study of Mus musculus with 44 samples.

Results

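Complement genes were read in macrophages (MFs) sorted from injured mouse muscle. The 8 genes listed were the C1q chains C1qa, C1qb and C1qc, the central component C3, the anaphylatoxin receptors C3ar1 and C5ar1, properdin (Cfp) and factor B (Cfb). A gene was read where the array annotation gave it a probe set with its symbol alone, and the probe set with the highest mean was used. By this rule 7 of the 8 were measured, each with 1 probe set, among 19938 genes. For C3 the annotation listed none under that symbol alone, and C3 was not analysed here.

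The series held 44 arrays in 10 groups, with RNA from CD45+ cells of tibialis anterior muscle after an injection of cardiotoxin, which destroys the fibres of the muscle. The cells were sorted by Ly6C, which inflammatory monocytes carry, and by the MF surface protein that Adgre1 encodes. Knockout (KO) mice were C57B6/J, PPARg fl/fl and LysM Cre+, so that Cre, inserted at Lyz2, removes floxed Pparg in myeloid cells only. Their MFs labelled Ly6C+ F4/80low were read on 4 arrays of day 1 after injury, 5 of day 2 and 4 of day 4, and those labelled Ly6C- F4/80high were 5 arrays at day 2. Rosiglitazone, a drug that activates the nuclear receptor PPARγ, was given to wild-type (WT) C57B6/J mice, with 3 Ly6C- and 3 Ly6C+ arrays of day 2. Untreated WT C57B6/J mice gave Ly6C+ MFs for 4 arrays of day 1, 6 of day 2 and 4 of day 4, besides 6 arrays of day 2 Ly6C- MFs. All animals shared the cardiotoxin injury, and no uninjured muscle is in these groups. The sample titles call the arrays of a group biological replicates, while the design text speaks of 3 animals and no label ties an array to an animal. The p values thus measure the spread between arrays, which may be partly technical, and precision is limited by how many arrays a group has.

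Complement is a system of plasma and cell-derived proteins that marks microbes and dead cells for removal. C1q, assembled from the products of C1qa, C1qb and C1qc, recognises antibody complexes and dying cells and starts the classical pathway, and MFs are a main source of it. Factor B and properdin serve the alternative pathway, factor B as the enzyme of its convertase and properdin as the protein that stabilises it. C3ar1 and C5ar1 are receptors on myeloid cells for the small fragments C3a and C5a that are split off during activation. Dead muscle fibres are cleared by MFs in the first days after injury, and C1q can act as a bridge between dead cells and phagocytes.

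The 3 C1q genes are neighbours on chromosome 4, in the order C1qb, C1qc and C1qa, between Ephb2 and Epha8. C3ar1 is on chromosome 6, as Pparg is. C5ar1 is on chromosome 7 next to C5ar2, Cfb on chromosome 17 next to C2, and Cfp on X. The bases before the start site of C1qb and C1qc are shown because these genes moved together in the comparisons, and those of C3ar1 because it passed in the same direction as C1qb in most comparisons in which C1qb passed. They are RefSeq sequences of GRCm38.p6, each on the minus strand and written 5′ to 3′, and C1qa and Cfb are named only. Capitals mark the letters TGCTGA, a core of the sites of MAF-family factors, or GAGGAA, a core of the sites of PU.1, searched on both strands.
C1qb, 250 bases at chr4:136886201-136886450: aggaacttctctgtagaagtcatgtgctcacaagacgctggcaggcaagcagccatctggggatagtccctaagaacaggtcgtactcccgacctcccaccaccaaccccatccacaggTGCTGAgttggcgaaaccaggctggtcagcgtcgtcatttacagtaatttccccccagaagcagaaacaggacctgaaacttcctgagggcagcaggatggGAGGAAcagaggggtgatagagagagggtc
C1qc, 228 bases at chr4:136892937-136893164: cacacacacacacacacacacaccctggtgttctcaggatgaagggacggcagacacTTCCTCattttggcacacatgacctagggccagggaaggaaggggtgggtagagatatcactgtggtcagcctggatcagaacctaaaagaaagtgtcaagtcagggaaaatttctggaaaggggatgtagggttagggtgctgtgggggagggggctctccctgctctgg
C3ar1, 250 bases at chr6:122856158-122856407: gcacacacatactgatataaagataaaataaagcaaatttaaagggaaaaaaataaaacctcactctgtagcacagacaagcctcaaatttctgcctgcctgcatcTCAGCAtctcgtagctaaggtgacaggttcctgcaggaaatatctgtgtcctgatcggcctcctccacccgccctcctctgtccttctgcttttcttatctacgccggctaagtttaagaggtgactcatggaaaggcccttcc
In the C1qb window TGCTGA and GAGGAA each occurred 1 time, without overlap. The C1qc window held 1 GAGGAA, as TTCCTC, and no TGCTGA, and the C3ar1 window held 1 TGCTGA, as TCAGCA, and no GAGGAA. In the 250 bases before the start of all 32851 promoters in the table, TGCTGA was present in 16.1% and GAGGAA in 23.3%. AGGTCA, the core of nuclear receptor sites, was found 1 time in the C1qc window and not in those of C1qb and C3ar1, against 14% of all promoters. The spaced repeat AGGTCANAGGTCA, which contains AGGTCA and is the form PPARγ and its partner RXR are known to bind, was in none of the 3, against 0.0335% of all promoters. A match of this kind is a description of the letters and not a measured binding site.

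Some arrays went against their labels. The Ly6C signal, read by 1 probe set common to Ly6c1 and Ly6c2, averaged 9.83 in KO and 9.88 in WT at day 4. In day 2 Ly6C- MFs it averaged 9.27 in KO and 8.78 in WT, and in day 2 Ly6C+ MFs 12.01 in KO and 11.91 in WT. Vcan, a matrix proteoglycan gene of monocytes, averaged 6.56 in KO and 6.56 in WT at day 4, below the 7.47 in KO and 7.97 in WT of day 2 Ly6C- MFs. Plac8, another monocyte gene, averaged 8.74 in KO and 9.20 in WT at day 4, between the day 2 Ly6C- MFs (7.22 in KO and 6.88 in WT) and the day 2 Ly6C+ MFs (11.41 in KO and 11.31 in WT). Adgre1, which encodes the other sort protein, averaged 12.27 in KO and 12.27 in WT at day 4. It averaged 12.07 in KO and 12.08 in WT day 2 Ly6C- MFs, labelled high for this protein. In day 2 Ly6C+ MFs, labelled low as day 4 is, it averaged 11.53 in KO and 11.53 in WT. The arrays labelled Ly6C+ at day 4 thus had group means of Ly6C signal and Plac8 between those of the day 2 subsets. Their means were below both subsets for Vcan and above both for Adgre1, against the label of low. Day 4 is compared below with each subset, and its differences from earlier Ly6C+ MFs include this difference in Adgre1. Lyz2, which holds the Cre, averaged 9.49 to 9.72 in the KO groups, against 12.95 and 12.99 in WT at days 1 and 4. In the arrays labelled WT day 2, replicates 1 to 3 averaged 9.18 (Ly6C-) and 8.87 (Ly6C+) for Lyz2, near or below the KO groups, and replicates 4 to 6 averaged 12.86 and 12.81. Some results that rest on WT day 2, most of them for the C1q genes, are therefore also given with each set. Pparg itself averaged 9.31, 10.39 and 10.18 in KO Ly6C+ MFs at days 1, 2 and 4, against 9.21, 10.31 and 9.94 in WT, and 10.38 in KO and 10.38 in WT Ly6C- MFs. It passed in no comparison of KO with WT, and no source used here says whether its probe set lies in the deleted part, so it does not measure the deletion. The 8 MF markers averaged between 11.12 and 11.44 in every group.

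C1qa group means ran from 9.05 in KO day 1 to 12.26 in KO day 4, a span of 3.20 on the log2 scale or 9.20-fold. C1qc spanned 2.52 (5.75-fold) and C1qb 1.40 (2.65-fold), and each probe set has its own response, so these spans are not compared between genes. The same 3 tiers stood in all 3 genes, with the Ly6C+ groups of days 1 and 2 lowest, the day 2 Ly6C- groups next and the day 4 groups highest. When the 10 groups were ordered by their mean, 7 of 9 neighbouring pairs overlapped in their arrays for each of the 3 genes, and the 2 pairs that stood apart were the steps between those tiers.

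**Figure D1:**
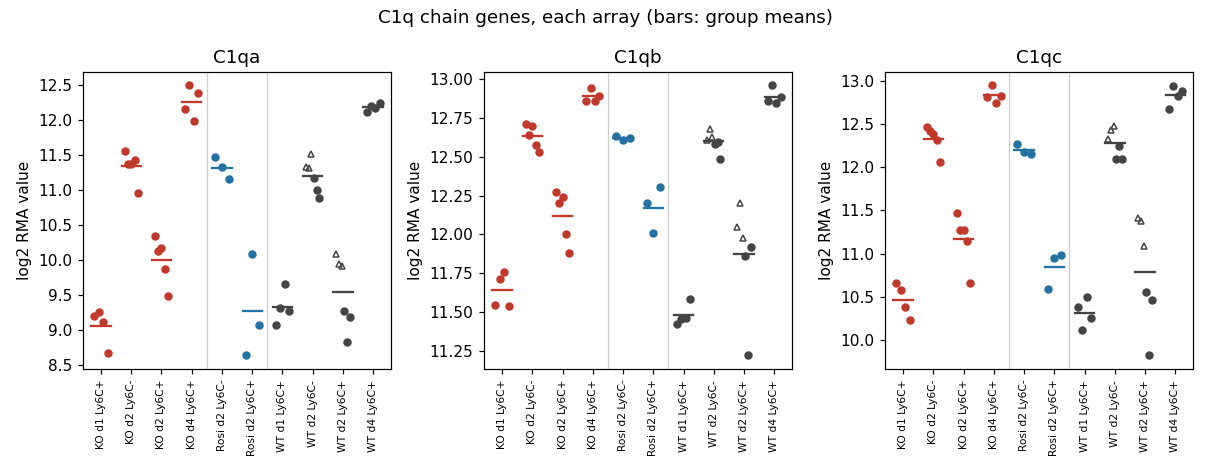
Log2 value of C1qa, C1qb and C1qc (vertical axis, log2 RMA value) on each array of the 10 groups (horizontal axis), with a bar at each group mean and replicates placed left to right. KO is red, rosiglitazone (Rosi) blue and WT grey, with WT day 2 replicates 1 to 3 as open triangles. C1qa means are 12.26 in KO and 12.18 in WT at day 4, above 11.34 in KO, 11.31 with rosiglitazone and 11.20 in WT day 2 Ly6C- MFs.

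The day 2 subsets asked how MFs sorted as Ly6C- differ from those sorted as Ly6C+. Between subsets 5 of the 7 genes passed in KO (4 higher and 1 lower in Ly6C- MFs), against 38.4% of all genes. With rosiglitazone 4 of 7 passed (3 higher, 1 lower), against 23.2% of all genes, and in untreated WT 5 of 7 (4 higher, 1 lower), against 45.2%. A gene passed where limma's p, adjusted over all genes by Benjamini-Hochberg, was below 0.05. The median difference of the 7 genes was 0.33 in KO and 0.30 in WT, beside medians over all genes of -0.09 and -0.07.

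C1qa was higher in Ly6C- MFs in each setting. KO Ly6C- arrays had 11.56, 11.37, 11.38, 11.42 and 10.96, against 10.34, 10.12, 10.17, 9.87 and 9.48 in KO Ly6C+ arrays. The groups did not overlap, and the difference was 1.34 (SE 0.20, adjusted p = 9.26e-07), or 2.53-fold. With rosiglitazone C1qa was 11.47, 11.33 and 11.15 in Ly6C- and 8.63, 10.09 and 9.07 in Ly6C+ MFs, a difference of 2.05 (SE 0.26, adjusted p = 4.14e-08) with wide scatter among the Ly6C+ arrays. In WT the lowest, median and highest values were 10.89, 11.24 and 11.52 in Ly6C- MFs, against 8.83, 9.59 and 10.08 in Ly6C+ MFs. All 6 Ly6C- arrays lay above all 6 Ly6C+ arrays, and C1qa was 1.67 higher (SE 0.18, adjusted p = 7.53e-10), or 3.18-fold. With only WT replicates 1 to 3 the difference was 1.41 and with only replicates 4 to 6 it was 1.93.

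C1qc followed the same order. KO Ly6C- MFs averaged 12.33 ± 0.16 and KO Ly6C+ MFs 11.16 ± 0.30 (SD over 5 arrays each), a difference of 1.17 (SE 0.17, adjusted p = 7.15e-07). WT Ly6C- MFs averaged 12.28 ± 0.16 and WT Ly6C+ MFs 10.78 ± 0.62 (SD over 6 arrays each), a difference of 1.49 (SE 0.16, adjusted p = 2.81e-10). The WT Ly6C+ arrays were spread, with 11.41, 11.37 and 11.09 in replicates 1 to 3 and 10.56, 9.82 and 10.46 in replicates 4 to 6. The difference between subsets was 1.12 with the first set and 1.86 with the other, and it passed with each. With rosiglitazone C1qc was 1.36 higher (SE 0.22, adjusted p = 6.84e-06), with 3 of 3 Ly6C- arrays above all Ly6C+ arrays.

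C1qb was also higher in Ly6C- MFs in each setting. It was 12.71, 12.64, 12.70, 12.58 and 12.53 in KO Ly6C- MFs, against 12.27, 12.20, 12.24, 12.01 and 11.88 in KO Ly6C+ MFs, 0.51 higher (SE 0.10, adjusted p = 5.9e-05). In WT the Ly6C- arrays lay within 12.49 and 12.68, and the Ly6C+ arrays within 11.22 and 12.20. These groups did not overlap, and C1qb was 0.72 higher (SE 0.09, adjusted p = 1.18e-08). It was 0.45 higher with rosiglitazone (SE 0.13, adjusted p = 0.00701), and without rosiglitazone Ly6C+ replicate 2 the difference was 0.36 and did not pass (adjusted p = 0.0528). The highest value of any probe set on the arrays was 13.6.

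Along the days after injury 4 of 7 genes passed between day 2 and day 1 in KO Ly6C+ MFs, all higher, against 8.64% of all genes, and in WT 3 of 7 (2 higher, 1 lower), against 9.69%. Between day 4 and day 2 Ly6C+ MFs 6 of 7 passed in KO (5 higher, 1 lower), against 44.8% of all genes, and 6 of 7 in WT (5 higher, 1 lower), against 49.8%. Between day 4 and day 1 it was 6 of 7 in KO (5 higher, 1 lower), against 64.3%, and 7 of 7 in WT (5 higher, 2 lower), against 48.5%. Comparisons that share a day share its arrays. The median difference of the 7 genes between day 4 and day 1 was 1.25 in KO and 1.40 in WT, beside -0.13 and -0.08 over all genes.

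C1qa rose with time. In KO it was 12.16, 12.49, 11.98 and 12.39 at day 4, against 9.19, 9.25, 9.11 and 8.67 at day 1, with the day 2 Ly6C+ arrays between them. Every KO day 2 array was above every day 1 array (0.94, SE 0.21, adjusted p = 0.00414), and day 4 exceeded day 1 by 3.20 (SE 0.22, adjusted p = 1.54e-15), or 9.20-fold. In WT the day 4 arrays had 12.12, 12.20, 12.17 and 12.25, against 9.06, 9.31, 9.65 and 9.26 on the day 1 arrays, a rise of 2.86 (SE 0.22, adjusted p = 3.86e-14), or 7.27-fold. The WT day 2 Ly6C+ arrays overlapped those of day 1, and the difference of 0.21 (SE 0.21, adjusted p = 0.621) did not pass. It was 0.65 with replicates 1 to 3 (adjusted p = 0.0233) and -0.23 with replicates 4 to 6 (adjusted p = 0.566).

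C1qc was higher at day 4 than at day 1 by 2.37 in KO (SE 0.19, adjusted p = 1.21e-13) and by 2.52 in WT (SE 0.19, adjusted p = 1.83e-14). Its day 4 arrays lay within 12.75 and 12.95 in KO and within 12.68 and 12.94 in WT, above every day 1 array. C1qb was higher at day 4 by 1.25 in KO (SE 0.11, adjusted p = 1.08e-12) and by 1.40 in WT (SE 0.11, adjusted p = 3.53e-14). Between day 2 and day 1 C1qc differed by 0.70 in KO (adjusted p = 0.0125) and by 0.47 in WT (adjusted p = 0.0822), the WT value being 0.98 with replicates 1 to 3 and -0.03 with replicates 4 to 6. Without WT Ly6C+ replicate 5, the lowest array, the WT difference of C1qc was 0.67 and passed (adjusted p = 0.00204), and it also passed without replicate 6 (0.54, adjusted p = 0.0446). In KO it was 0.62 and did not pass without day 1 replicate 4 (adjusted p = 0.0567). C1qb differed by 0.48 in KO (adjusted p = 0.0029) and by 0.39 in WT (adjusted p = 0.00821), and with WT replicates 4 to 6 alone its difference of 0.19 did not pass (adjusted p = 0.307).

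The day 4 MFs were also set against the day 2 Ly6C- MFs. They differed from these in Vcan (-0.91 in KO and -1.40 in WT) and Plac8 (1.51 in KO and 2.31 in WT). All 4 of these differences passed by limma. Adgre1 was also higher at day 4, by 0.21 in KO and 0.19 in WT (adjusted p = 0.0174 and 0.0238). Igf1, a growth factor gene, differed by 0.18 in KO and 0.19 in WT, without passing. In KO 4 of 7 genes passed (3 higher, 1 lower), against 24.8% of all genes, and in WT 5 of 7 (4 higher, 1 lower), against 29.3%. C1qa was 0.92 higher at day 4 in KO (SE 0.21, adjusted p = 0.000845) and 0.98 higher in WT (SE 0.21, adjusted p = 0.000183), and every day 4 array lay above every day 2 Ly6C- array of its genotype. C1qc was 0.50 higher in KO (adjusted p = 0.0385) and 0.56 higher in WT (adjusted p = 0.0135), and in KO it passed in 3 of the 9 fits that left out 1 array, those without Ly6C- replicate 1, 2 or 3. C1qb was 0.29 higher in WT (adjusted p = 0.0258) and passed in 7 of 10 such fits, not without Ly6C- replicate 6 or day 4 replicate 2 or 4, and it differed by 0.26 in KO (adjusted p = 0.0692). C3ar1 did not pass, with 0.03 in KO and -0.00 in WT.

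**Figure D2:**
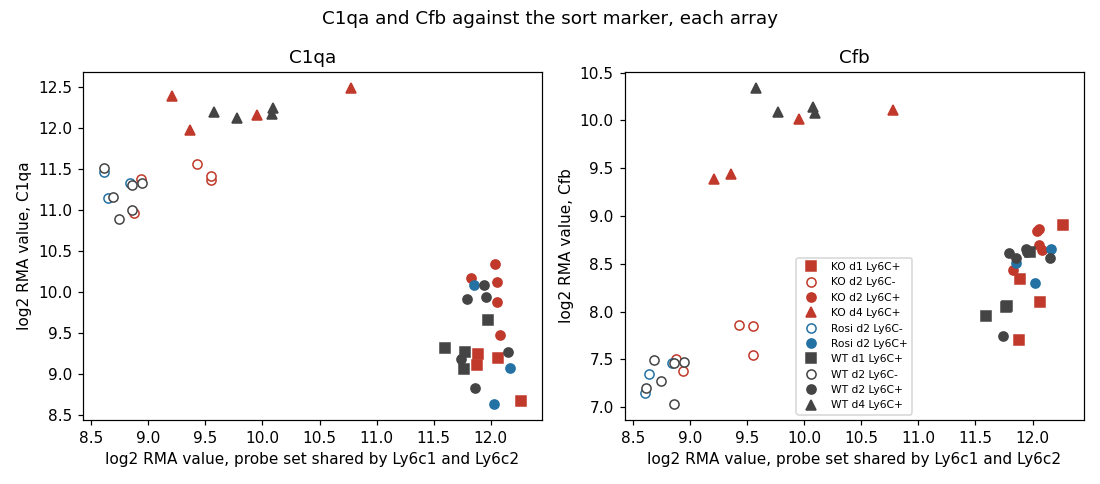
Log2 value of C1qa (left) and Cfb (right) on each array against the probe set shared by Ly6c1 and Ly6c2 (horizontal axis, log2 RMA value). KO is red, rosiglitazone (Rosi) blue and WT grey, squares are day 1, circles day 2 and triangles day 4, and open symbols are Ly6C- groups. The day 4 arrays lie between 9.21 and 10.78 on the horizontal axis, apart from all Ly6C+ arrays of days 1 and 2, and are highest in both genes.

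C3ar1, the receptor for C3a, varied little. Its group means spanned 0.68 (1.60-fold), and all 9 neighbouring pairs of groups overlapped. At day 4 it was 12.81, 12.95, 12.86 and 12.83 in KO and 12.74, 12.83, 12.89 and 12.83 in WT. The low end was day 1, with 12.31, 12.19, 12.22 and 12.37 in KO and 12.32, 12.08, 12.18 and 12.17 in WT. Day 4 exceeded day 1 by 0.59 in KO (SE 0.06, adjusted p = 8.89e-11) and 0.64 in WT (SE 0.06, adjusted p = 1.19e-11), without overlap. At day 2 it was above day 1 by 0.23 in KO (adjusted p = 0.00909) and 0.34 in WT (adjusted p = 5.23e-05). Between subsets it was 0.33 higher in KO Ly6C- MFs (SE 0.05, adjusted p = 6.15e-06) and 0.30 higher in WT Ly6C- MFs (SE 0.05, adjusted p = 5.22e-06), with every Ly6C- array above every Ly6C+ array in each genotype. With rosiglitazone the subset difference was 0.12 (SE 0.07, adjusted p = 0.263), although 3 of 3 Ly6C- arrays lay above the Ly6C+ arrays.

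C5ar1, the receptor for C5a that draws phagocytes to sites of activation, went the other way with time. It was 10.89, 10.80, 11.09 and 10.80 in KO day 4 arrays, against 11.66, 11.63, 11.73 and 11.79 in KO day 1 arrays, a difference of -0.81 (SE 0.09, adjusted p = 1.81e-09). In WT it was 10.62, 10.39, 10.79 and 10.50 at day 4, against 11.67, 11.68, 11.76 and 11.80 at day 1, a difference of -1.15 (SE 0.09, adjusted p = 1.5e-13). No day 4 array overlapped any earlier array. The day 4 MFs were also lower than the day 2 Ly6C- MFs, by -0.58 in KO (adjusted p = 1.94e-06) and -0.80 in WT (adjusted p = 7.21e-10). Between subsets the differences of -0.13 in KO, -0.25 with rosiglitazone and -0.16 in WT did not pass (adjusted p = 0.208, 0.101 and 0.0918). Without WT Ly6C+ replicate 5 the WT value was -0.20 and passed (adjusted p = 0.0293). The day 4 groups, in which C1q was highest, thus held the lowest C5ar1.

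Cfb, factor B, had an order of its own. It was lowest in day 2 Ly6C- MFs, with 7.86, 7.55, 7.38, 7.85 and 7.50 in KO, against 8.85, 8.69, 8.44, 8.86 and 8.64 in KO Ly6C+ MFs. The difference was -1.07 in KO (SE 0.17, adjusted p = 2.39e-06), -1.17 with rosiglitazone (SE 0.22, adjusted p = 5.42e-05) and -1.14 in WT (SE 0.15, adjusted p = 8.28e-08), and the subsets did not overlap in any of the 3 settings. At day 4 it was highest, with 10.02, 10.11, 9.43 and 9.38 in KO and 10.09, 10.34, 10.15 and 10.07 in WT. Cfb at day 4 exceeded the day 2 Ly6C- MFs by 2.11 in KO (SE 0.18, adjusted p = 1.96e-12) and by 2.84 in WT (SE 0.17, adjusted p = 5.7e-17), or 4.31-fold and 7.17-fold. It exceeded day 1 by 1.48 in KO (SE 0.19, adjusted p = 1.25e-08) and by 1.99 in WT (SE 0.19, adjusted p = 6.76e-12). The day 2 and day 1 Ly6C+ groups overlapped, with differences of 0.43 in KO and 0.29 in WT (adjusted p = 0.12 and 0.339). Without KO day 1 replicate 4, the highest of its group at 8.91, the KO difference was 0.65 and passed (adjusted p = 0.025). The WT difference was 0.44 without day 1 replicate 3, the highest of its group at 8.62, and 0.43 without day 2 replicate 6, the lowest of its group at 7.75, and passed in neither case (adjusted p = 0.139 and 0.0724).

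Cfp, properdin, which is made by leukocytes, changed least clearly. Its group means spanned 0.69 (1.61-fold), and all 9 neighbouring pairs overlapped. In WT it was 11.66, 11.73, 11.67 and 11.60 at day 4, against 12.21, 12.36, 12.36 and 12.47 at day 1, a difference of -0.69 (SE 0.17, adjusted p = 0.00108). In KO the day 4 arrays had 11.75, 11.83, 11.72 and 11.93, against 12.15, 12.22, 12.25 and 12.06 on the day 1 arrays. These KO groups did not overlap, and their difference of -0.36 did not pass (SE 0.17, adjusted p = 0.0641). With only the KO day 4 and day 1 arrays in the fit it passed (adjusted p = 0.00197). At day 2, WT replicates 1 to 3 averaged 11.68 in Ly6C- and 11.98 in Ly6C+ MFs, and replicates 4 to 6 averaged 11.78 and 11.57. The order of the subsets thus differed between these sets. One WT day 2 Ly6C+ array, replicate 5, had 10.50, while the other 5 lay within 11.85 and 12.15. Without it the difference between WT Ly6C- and Ly6C+ MFs was -0.30 and passed (adjusted p = 0.000307), against -0.05 with it (adjusted p = 0.783), and the difference between WT day 4 and day 2 was -0.37 (adjusted p = 7.47e-05), against -0.11 (adjusted p = 0.559). Cfp was lower at day 2 than at day 1 in WT, by -0.57 (adjusted p = 0.0147), and by -0.32 without that array (adjusted p = 0.0036). Without WT day 1 replicate 4 the value of -0.53 did not pass (adjusted p = 0.0599).

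**Figure D3:**
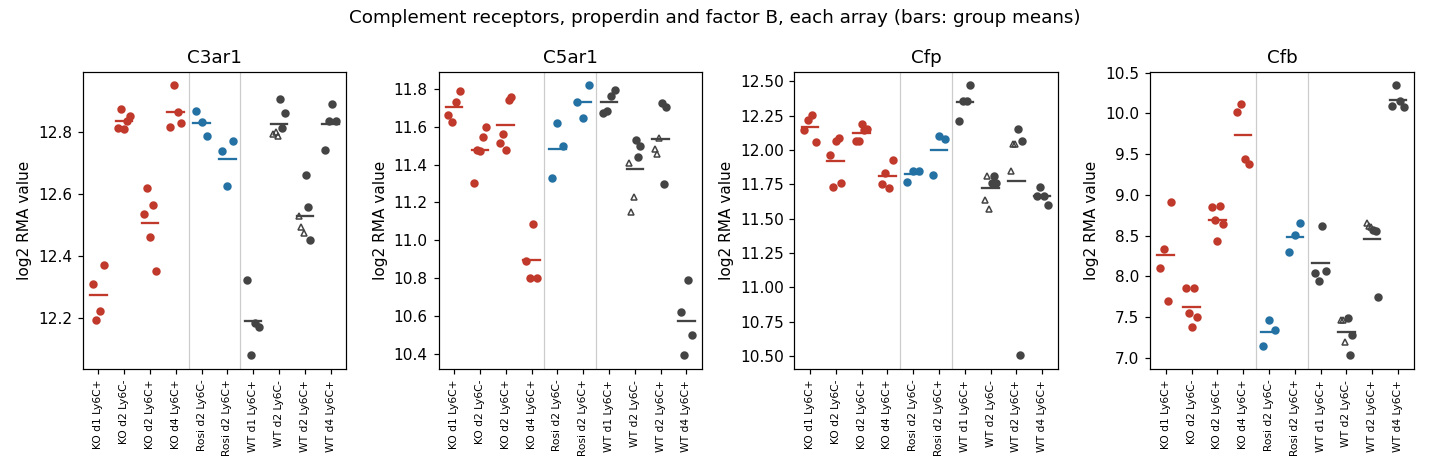
Log2 value of C3ar1, C5ar1, Cfp and Cfb (vertical axis, log2 RMA value, its own range in each panel) on each array of the 10 groups, with a bar at each group mean. KO is red, rosiglitazone (Rosi) blue and WT grey, with WT day 2 replicates 1 to 3 as open triangles. C5ar1 is lowest and Cfb highest at day 4, and the WT day 2 Ly6C+ array of Cfp at 10.50 stands below all others.

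Deletion of Pparg was asked about by setting KO against WT in 4 conditions. None of the 7 genes passed in any of them by limma. The share of all genes that passed was 0.0351% at day 1, 1.88% in day 2 Ly6C+ MFs, 0.201% in day 2 Ly6C- MFs and 0.0652% at day 4. At an unadjusted p below 0.05 there were 0 of 7 at day 1, 4 of 7 in day 2 Ly6C+ MFs, 0 of 7 in day 2 Ly6C- MFs and 2 of 7 at day 4, where the shares of all genes at that threshold were 3.11%, 15.6%, 9.92% and 2.97%. The C1q genes differed by at most 0.27 in size at day 1, 0.14 in day 2 Ly6C- MFs and 0.07 at day 4. For C1qa at day 4 the difference was 0.07 with a 95% interval of -0.38 to 0.52, for C1qc 0.00 with -0.39 to 0.39, and for C1qb 0.00 with -0.22 to 0.22.

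In day 2 Ly6C+ MFs the C1q values depended on which WT arrays were used. C1qa was 10.34, 10.12, 10.17, 9.87 and 9.48 in KO, against a mean of 9.53 in WT (SD 0.51, n = 6), a difference of 0.46 (SE 0.19, adjusted p = 0.212). C1qb differed by 0.25 (adjusted p = 0.167) and C1qc by 0.38 (adjusted p = 0.241). WT replicates 1 to 3, whose Lyz2 was near or below the KO level, averaged 9.98 for C1qa, 12.07 for C1qb and 11.29 for C1qc, and replicates 4 to 6 averaged 9.09, 11.67 and 10.28. The arrays of these sets did not overlap in any of the 3 genes, and how many of all genes separate in this way was not counted. For C1qb they came close, at 11.98 to 12.20 in replicates 1 to 3 and 11.22 to 11.92 in replicates 4 to 6. Against replicates 4 to 6 alone KO was higher by 0.91 for C1qa (adjusted p = 0.0173), 0.45 for C1qb (adjusted p = 0.0204) and 0.89 for C1qc (adjusted p = 0.000634). Against replicates 1 to 3 alone the differences were 0.02, 0.04 and -0.13 (adjusted p = 0.961, 0.75 and 0.539). The labels do not say what sets these WT arrays apart, and its part in the result was not tested. Without WT replicate 5 the differences were 0.32 for C1qa, 0.12 for C1qb and 0.19 for C1qc. In Ly6C- MFs the same sets gave 0.32 for C1qa against replicates 4 to 6 and -0.05 against replicates 1 to 3, and neither passed. The WT sets did not overlap in Ly6C- MFs either. Replicates 1 to 3 had 11.31 to 11.52 for C1qa, 12.61 to 12.68 for C1qb and 12.33 to 12.47 for C1qc. Replicates 4 to 6 had 10.89 to 11.16, 12.49 to 12.60 and 12.09 to 12.24.

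At day 4 C5ar1 had the lowest adjusted p of the 7. All 4 KO arrays (10.80 to 11.09) lay above all 4 WT arrays (10.39 to 10.79), a difference of 0.32 (SE 0.09, adjusted p = 0.901). Cfb differed by -0.43 at day 4 (SE 0.19, adjusted p = 1), with KO arrays at 10.02, 10.11, 9.43 and 9.38, against 10.09, 10.34, 10.15 and 10.07 in WT. The groups overlapped, and 3 of 4 KO arrays lay below all WT arrays.

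Rosiglitazone was compared with no drug in each day 2 subset, against the same untreated arrays as KO. In Ly6C- MFs 0 of 7 passed by limma, against 0.0351% of all genes, and 0 of 7 had an unadjusted p below 0.05, against 9.63% of all genes. C1qa was 11.31 with the drug and 11.20 without, a difference of 0.11 with a 95% interval of -0.34 to 0.57. In Ly6C+ MFs 1 of 7 passed, against 11.1% of all genes. This was C3ar1, with 12.74, 12.62 and 12.77 in treated arrays, against 12.45 to 12.66 in the 6 untreated arrays. The groups overlapped, and the difference was 0.18 (SE 0.06, adjusted p = 0.0457). It passed in 3 of 9 fits that left out 1 array, those without untreated replicate 4 or 5 or treated replicate 2, and with only the arrays compared it did not pass (adjusted p = 0.36). The treated arrays averaged 12.71, against 12.50 in untreated replicates 1 to 3 and 12.56 in untreated replicates 4 to 6. The test of C3ar1 against each of these sets is not given here.

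The C1q genes in rosiglitazone Ly6C+ MFs also turned on the WT set. C1qa differed by -0.27 from untreated MFs (SE 0.22, adjusted p = 0.487), by -0.71 from replicates 1 to 3 (adjusted p = 0.0134) and by 0.17 from replicates 4 to 6 (adjusted p = 0.796). With 1 array left out it ranged from -0.68 without treated replicate 2 (adjusted p = 0.0519) to 0.05 without treated replicate 1 (adjusted p = 0.937), and it was -0.41 without untreated replicate 5. C1qc differed by 0.06 (adjusted p = 0.89), by -0.45 from replicates 1 to 3 (adjusted p = 0.0139) and by 0.56 from replicates 4 to 6 (adjusted p = 0.0577). C1qb differed by 0.30 (adjusted p = 0.0681), was 0.50 above replicates 4 to 6 (adjusted p = 0.0233), and passed against all untreated arrays but replicate 2 (0.37, adjusted p = 0.0291) or without treated replicate 2 (0.38, adjusted p = 0.0467). The treated arrays themselves had Lyz2 at 12.90 to 13.10 in Ly6C+ MFs, the level of WT replicates 4 to 6.

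Differences between differences were tested as interactions, and 0 of 7 genes passed in each of 4. The share of all genes that passed was 0.01% for genotype by day 2 subset, 0.015% for rosiglitazone by day 2 subset, 0.01% for genotype by day 2 against day 1 and 0.0301% for genotype by day 4 against day 2. Unadjusted p was below 0.05 for 0, 1, 2 and 1 of the 7 genes in this order, and for 2.80%, 7.76%, 8.94% and 8.46% of all genes. The largest was C1qa for genotype by day 2 against day 1, at 0.73 (SE 0.30, adjusted p = 0.471), and Cfb for genotype by day 4 against day 2 was -0.66 (SE 0.25, adjusted p = 0.437).

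**Figure D4:**
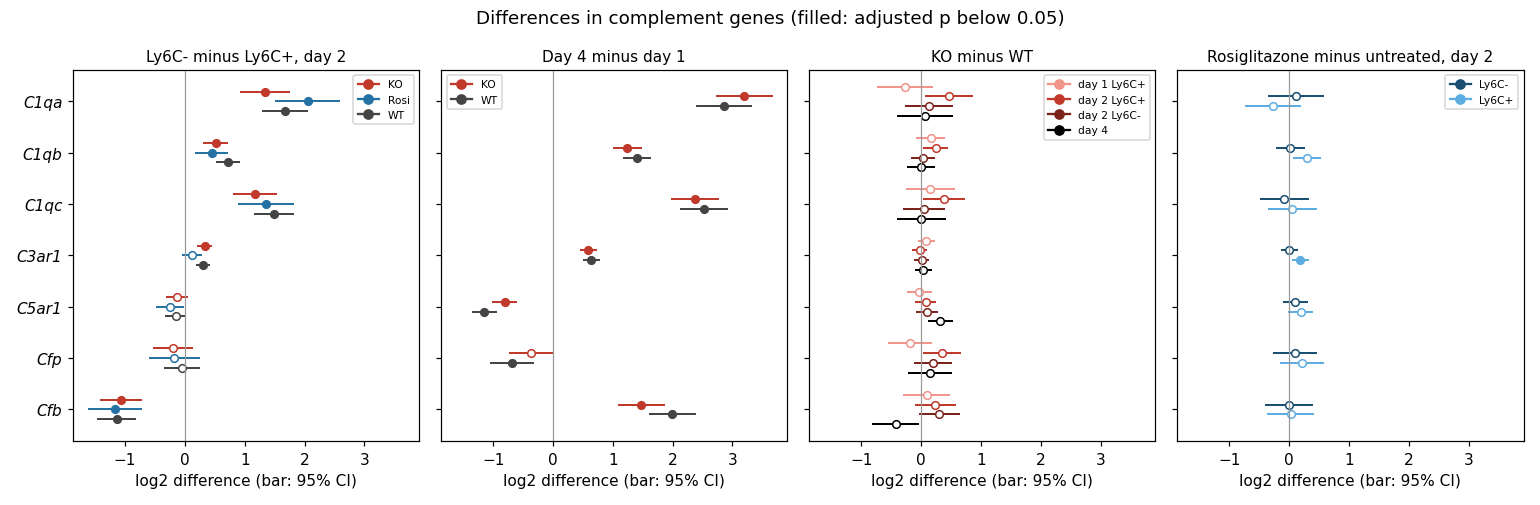
Log2 difference (horizontal axis) of each of the 7 genes for Ly6C- minus Ly6C+ at day 2, day 4 minus day 1, KO minus WT and rosiglitazone minus untreated, with 95% confidence intervals as bars. Filled points have an adjusted p below 0.05. C1qa, C1qb and C1qc lie right of 0 in the first panels, Cfb changes side between them, and of the KO and rosiglitazone comparisons 1 point is filled, C3ar1 at 0.18.

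The 7 genes fell into different orders over the groups. Across the 10 group means Pearson's r was 0.99 between C1qa and C1qc, 0.98 between C1qb and C1qc and 0.94 between C1qa and C1qb. With the group means removed, over 44 arrays, it was 0.81, 0.79 and 0.51 for these pairs, so that arrays of 1 group that were high in one chain tended to be high in the others. The spread of C1qb (SD 0.34) and C1qc (SD 0.62) was widest in WT day 2 Ly6C+ arrays, whose replicate sets differed. For C1qa the spread was widest in rosiglitazone Ly6C+ arrays (SD 0.75). A group with a wide spread can weigh heavily in the within-group values, and none was computed without such a group. C3ar1 had r = 0.95 with C1qb over the group means and -0.05 within groups. C5ar1 had r = -0.85 with C1qa over the group means and Cfb had 0.30. Cfp had r = -0.80 with C1qb over the group means and 0.72 within groups, the within-group value including the array that was low in both. The points share arrays, sort and normalization, and these values are descriptions.

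The genes with the most similar pattern were read by Pearson's r over the 10 group means. All genes were ranked except the gene itself (for the C1q mean, the C1q genes) and predicted genes. Predicted genes were those with a symbol of Gm and a number or ending in Rik. For the mean of the C1q genes these were Dnajb14 (0.998), Ttyh2 (0.997), Hscb (0.996), Zfp442 (0.995) and Ocel1 (0.995). For C1qa the nearest were Inppl1 and Sec14l1 (0.996 each) and Prdx4 (0.994), and for C3ar1 Jmjd8, Snupn and Tmco1 (0.996 each). For C5ar1 they were the chemokine genes Ccl7 (0.990), Cxcl2 (0.989) and Ccl2 (0.984), then Msr1 and Fn1 (0.983 each). For Cfb they were Tap1 (0.995), Stat2 and Parp9 (0.991 each), Epsti1 (0.990) and Tor3a (0.989). For Cfp they were lower, with Rfx1 at 0.975 and Flot1 at 0.952.

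Other complement genes moved in either direction. Of 45 further genes with a probe set of their own, 9 were higher and 12 lower in KO Ly6C- than in KO Ly6C+ MFs, with a median of -0.12, and 10 were higher and 12 lower in the WT subsets, with a median of -0.08. Between day 4 and day 1, 18 were higher and 19 lower in KO (median -0.09), and 13 higher and 10 lower in WT (median -0.03). Medians over all genes were -0.09, -0.07, -0.13 and -0.08 in these comparisons. Of all genes, 19.8% were higher and 18.6% lower between KO subsets, 22.2% and 23.0% between WT subsets, 27.2% and 37.1% between days in KO and 26.0% and 22.6% between days in WT. Of the 7 terminal pathway genes, which form the membrane attack complex, 0 were higher in Ly6C- MFs, and 2 were lower in KO and 1 in WT. Their mean over genes was low, with group means of 5.61 to 5.86, where the median gene of an array had 6.78 to 6.95. These counts thus do not show that the MFs expressed the terminal pathway.

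Among the regulators, Cd59a, which encodes an inhibitor of the membrane attack complex, was 2.09 higher in Ly6C- MFs in KO (SE 0.19) and 2.16 higher in WT (SE 0.17). It was 2.44 higher at day 4 than at day 1 in KO and 2.19 higher in WT. Its close copy Cd59b was 0.83 higher in Ly6C- MFs in KO and 0.70 in WT, and signal shared between the copies cannot be told apart here. Among receptors, Lair1, an inhibitory receptor that can bind C1q, was 0.75 higher in Ly6C- MFs in KO and 0.87 in WT, and 2.18 and 2.37 higher at day 4 than at day 1. Vsig4, a receptor for C3 fragments on tissue MFs, was 1.36 higher at day 4 than at day 1 in KO and 1.43 in WT, and Itgax, a chain of complement receptor 4, 1.58 and 1.57. Itgam, the other alpha chain, of complement receptor 3, was -0.86 in KO and -0.96 in WT between these days, and their shared partner Itgb2 -0.62 and -0.73. C5ar2, the neighbour of C5ar1 and a second C5a receptor, was lower in Ly6C- MFs by -0.55 in KO and -0.58 in WT, and at day 4 differed from day 1 by -0.19 in KO, which did not pass, and by -0.60 in WT.

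Among recognition and early components, Colec12, a collectin, was 0.67 higher in Ly6C- MFs in KO and 0.63 in WT. Fcnb, a ficolin of monocytes and neutrophils, was -0.83 in KO and -0.66 in WT. C4b was -0.39 in KO and -0.37 in WT Ly6C- MFs, and C4a, its close copy, was -0.31 in WT and -0.19 in KO, where it did not pass. Of all 45 genes Cd93, a MF receptor once taken for a C1q receptor, was the 1 that passed between KO and WT, at 0.24 in day 2 Ly6C+ MFs (SE 0.06, adjusted p = 0.0198). In that comparison 1.88% of all genes passed, and Cd93 was not fitted with each WT replicate set.

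**Figure D5:**
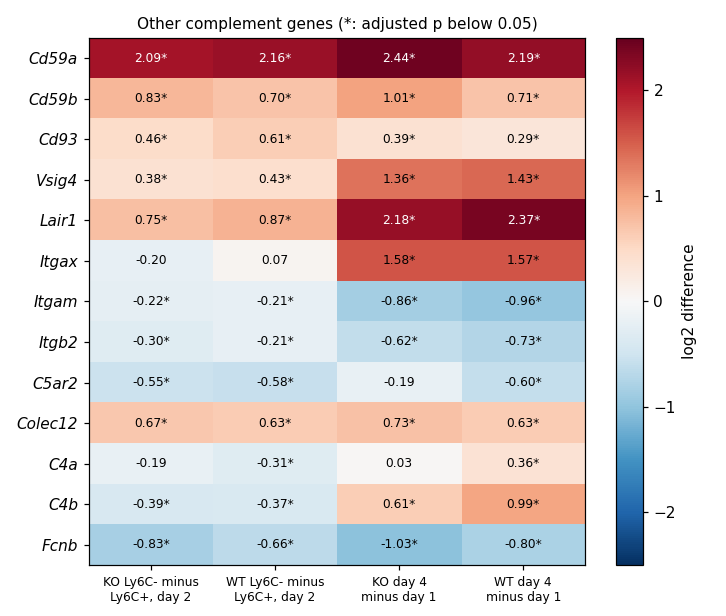
Log2 differences of 13 other complement genes (rows) in 4 comparisons (columns), with the value printed in each cell, red for higher and blue for lower, and an asterisk where adjusted p was below 0.05. Cd59a and Lair1 are higher in all 4 columns, Fcnb is lower in all 4, and Itgax is higher in the day 4 columns alone among those that passed.

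Transcription factors that act on complement genes were read for 5 genes with a probe set of their own. Maf, a MAF-family factor of MFs, was 0.61 higher at day 4 than at day 1 in KO (adjusted p = 0.000234) and 0.42 higher in WT (adjusted p = 0.0116), and between subsets it differed by 0.03 in KO and 0.05 in WT, without passing. Spi1, which encodes PU.1, differed by 0.04 in KO and 0.07 in WT between day 4 and day 1, and by -0.09 and -0.16 between subsets, and passed in none of these. It was higher at day 4 than in day 2 Ly6C- MFs by 0.23 in KO and 0.29 in WT (adjusted p = 0.0445 and 0.00583), higher with rosiglitazone in Ly6C+ MFs by 0.37 (adjusted p = 0.0054), and lower in Ly6C- than in Ly6C+ MFs under rosiglitazone by -0.49 (adjusted p = 0.0003). Irf1, an interferon-regulated factor, was lower in Ly6C- MFs by -0.45 in KO and -0.71 in WT, and higher at day 4 than in day 2 Ly6C- MFs by 0.55 in KO and 1.29 in WT. Between day 4 and day 1 Irf1 differed by 0.05 in KO and -0.05 in WT, without passing (adjusted p = 0.823 and 0.851). Rela, a subunit of NF-kappaB, was lower in Ly6C- MFs by -0.27 in KO and -0.27 in WT. It was also lower at day 4 than at day 1, by -0.27 in KO (adjusted p = 0.00661) and -0.48 in WT (adjusted p = 7.05e-06). Cebpb, a factor of inflammatory MFs, was lower at day 4 than at day 1 by -2.18 in KO and -2.15 in WT. With rosiglitazone in Ly6C+ MFs, Maf was also higher, by 0.43 (adjusted p = 0.0342), and Irf1 lower, by -0.56 (adjusted p = 0.0458). Cebpb and Rela did not pass there, and these factors were not fitted with each WT replicate set.

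Markers of other cells moved with the same comparisons, and in these bulk samples fewer cells of a type and less RNA per cell cannot be told apart. The shares of all genes called in each direction, given above or beside the counts, are the background of these counts. Of 7 markers of resident-type MFs, 4 were higher in Ly6C- MFs in KO and 5 in WT, with 0 lower in either, and at day 4 against day 1 there were 5 higher and 1 lower in KO and 5 higher in WT. Their mean over genes lay between 8.46 and 8.79 on KO Ly6C- arrays, against 7.93 to 8.05 on KO Ly6C+ arrays, and between 8.51 and 8.91 on WT Ly6C- arrays, against 7.88 to 7.98 on WT Ly6C+ arrays. Of 15 neutrophil markers, 7 were lower and 2 higher in Ly6C- MFs in each genotype, with means of 6.70 to 6.77 in KO Ly6C- against 7.03 to 7.30 in KO Ly6C+ MFs, and of 6.56 to 6.74 in WT Ly6C- against 6.95 to 7.19 in WT Ly6C+ MFs. At day 4 against day 1, 13 of them were lower and 1 higher in KO and 10 lower and 1 higher in WT, with group means of 6.42 in KO and 6.33 in WT at day 4, against 7.54 and 7.50 at day 1.

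Of 8 endothelium markers, 4 were lower in Ly6C- MFs in KO and 7 in WT, with means of 6.27 to 6.41 in KO Ly6C- against 6.51 to 6.68 in KO Ly6C+ MFs and of 6.34 to 6.57 in WT Ly6C- against 6.53 to 7.23 in WT Ly6C+ MFs. At day 2 in Ly6C+ MFs 5 of them were lower in KO than in WT and 4 lower with rosiglitazone than without. Of all 19938 genes, 157 and 1117 were lower in these comparisons, in this order. Both rest on the same untreated WT Ly6C+ arrays, whose means spread from 6.53 to 7.23. Results of these markers with each WT replicate set are not given here. Of 9 fibroblast markers, 3 were higher and 1 lower at day 4 than at day 1 in KO and 3 higher in WT, with means of 6.86 to 7.05 against 6.56 to 6.61 in KO and 6.77 to 7.23 against 6.43 to 6.61 in WT. Between subsets 0 of them passed in KO and 5 were lower in WT Ly6C- MFs. Of 10 muscle fibre markers, 6 were higher and 1 lower in KO and 7 higher in WT at day 4 than at day 1, with means of 6.77 to 6.96 in KO and 6.84 to 6.97 in WT, against 6.47 to 6.63 and 6.39 to 6.57. Of 8 T and NK cell markers, 2 were higher and 2 lower in KO and 3 higher in WT, with group means of 5.91 in KO and 5.97 in WT at day 4, against 5.63 and 5.59 at day 1. Of 8 dendritic cell markers, 5 were lower in KO Ly6C- MFs and 4 in WT, and at day 4 against day 2 Ly6C- MFs 5 were higher in each genotype, where 13.1% of all genes were higher in KO and 14.1% in WT. The part of these cell types in the differences of the complement genes was not tested.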

How the data were processed

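The authors deposited log2 values made with RMA for 35556 probe sets on 44 one-colour Affymetrix arrays. No source used here gives the software version or the probe set definition. Values were used as deposited, with no filter. Array medians ran from 6.64 to 6.77, and 0 pairs of arrays were identical. The platform annotation gave 1 symbol to 21789 probe sets, which yielded 19938 genes (highest mean per gene), and 1621 with several symbols and 12146 without one were left out.

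One mean per group was fitted over all arrays with limma 3.58.1 in R 4.3.3 (34 residual degrees of freedom), in 17 contrasts and 4 interactions, two-sided. The fit was tested on simulated data. Differences are first-named minus second group, with SE or SD. Alternatives are under the closing section. Same-numbered arrays were checked for pairing by the correlation of their residuals. Only the rosiglitazone subsets had every pair over 0.1 (3 pairs, r = 0.13 to 0.44), and the replicate block changed no call there.

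The genes named were the members, up to 4 further complement genes a direction in a comparison, and all factors. The members and lists were chosen with earlier results of these data known. Sequences are from RefSeq.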

Additional observations from a re-analysis of the deposited data

Results flagged for a closer look

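In 4 of the 56 groups of 4 to 6 arrays tested, 1 array lay far from the others relative to the range of its group, where chance alone marks about 1 in 20 groups. For C1qb, WT day 2 Ly6C+ replicate 5 had 11.22, with the other 5 arrays between 11.86 and 12.20. The same array had 10.50 for Cfp, with the others between 11.85 and 12.15. For Cfb, WT day 1 replicate 3 had 8.62, with the others between 7.95 and 8.06, and WT day 2 Ly6C+ replicate 6 had 7.75, with the others between 8.56 and 8.66. Without WT day 2 Ly6C+ replicate 6, Cfb differed between WT subsets by -1.28, against -1.14 with it, and without WT day 1 replicate 3 it differed between WT day 4 and day 1 by 2.14, against 1.99 with it.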

How the results depend on the processing

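Of 147 differences of the 7 genes, 56 passed, and 47 of these passed under every alternative. Of 2842 alternative values 28 no longer passed, 45 newly passed and 2 passed in the opposite direction, and 107 more changed sign without passing either way. Both reversals were C1qc between rosiglitazone and untreated Ly6C+ MFs (0.06), at -0.45 with the replicate block and -0.45 with WT day 2 arrays 1 to 3 alone. Untreated arrays 4 to 6 share no number with a treated array, so the block also rests on WT arrays 1 to 3 in this comparison. The 2 reversals are thus not separate results. Under that comparison, where 1 gene passed, 2 passed with array median centring, 0 with only the arrays compared, 2 with the replicate block, 2 with genes above the median level, 4 with array weights, 3 with WT arrays 1 to 3 and 0 to 2 with 1 array left out. For WT Ly6C+ day 2 against day 1, 3 genes passed, and 1 with only the arrays compared 5 with WT arrays 1 to 3 and 2 to 4 with 1 array left out. Between KO and WT, 0 passed, and 3 in day 2 Ly6C+ MFs against WT arrays 4 to 6 and 1 (Cfp, 0.25) in Ly6C- MFs against arrays 1 to 3.

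Over all genes, KO against WT in day 2 Ly6C+ MFs passed for 374 genes, and for 13 with only the arrays compared, 47 with the replicate block, 2123 with array weights and 3008 against WT arrays 1 to 3. Rosiglitazone in Ly6C+ MFs passed for 2218 genes, and for 0, 4480, 5037 and 5435 under the same alternatives. In the block an array without a same-numbered partner adds nothing to the difference, so the 4480 rests on untreated arrays 1 to 3. WT day 2 against day 1 passed for 1931 genes, and for 537 with only the arrays compared, 974 with the block and 3403 with WT arrays 1 to 3. WT subsets passed for 9007 genes, and for 5831 with only the arrays compared. Same-numbered WT subset arrays correlated at r = 0.01 to 0.60, with 3 of 6 best with their own number, and KO at 0.04 to 0.29, with 4 of 5. The causes were not tested. Cfp passed between KO subsets with the replicate block (-0.20, adjusted p = 0.0282).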
